A study of Rattus norvegicus and Mus musculus with 34 samples.

Results

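Cytosolic ribosomal protein genes encode the proteins of the small (Rps) and large (Rpl) ribosomal subunits. They were taken by gene symbol: Rps or Rpl followed by a number, with an optional letter or copy suffix, and Rpsa, Rplp0, Rplp1 and Rplp2. The rule found 95 of 20022 genes in the rat tables, 39 of the small and 56 of the large subunit, and 89 of 51912 genes in the mouse table, 36 and 53, with 78 symbols found in both species. Healing tissue, a mixture of cells, came from a periodontal bone defect in the mandible of 23 wild-type male SD rats aged 6 to 8 weeks. The inferior alveolar nerve was left intact (sensory nerve+) or had a 5 mm segment removed (sensory nerve-), and tissue was taken at day 3, 7 or 14. Each of the 6 groups had 4 rats, except sensory nerve+ at day 3, which had 3. RAW264.7 cells, a mouse macrophage line, received LPS at 100 ng/ml, a bacterial activator of macrophages, for 6 h, alone (n = 6) or together with 10 nM CGRP, a sensory neuropeptide (n = 5). The sensory nerve- rats of day 7 were in a table without sensory nerve+ samples, so that the table and the transection cannot be told apart at that day, and the table and time cannot be told apart where sensory nerve- rats of day 7 are set against day 3 or 14. The interactions with day 7 carry the same limit. Because the tissue was sequenced in bulk, fewer cells of a type and less RNA per cell cannot be told apart.

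Ribosomal proteins are made in matched amounts and joined to ribosomal RNA in the nucleolus. Their mRNAs carry a stretch of pyrimidines at the very 5′ end, the terminal oligopyrimidine tract, through which the kinase mTOR and the protein Larp1 control translation, so that a large part of their regulation lies beyond mRNA level. Several ribosomal proteins have a paralog that is used in particular tissues: Rpl3l replaces Rpl3 in striated muscle, Rpl10l and Rpl39l are known from testis, and Rps27l is a target of p53.

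The windows below run from 30 bases before to 20 bases from the start annotated by RefSeq on GRCr8, 5′ to 3′, and capitals mark a tract that begins with C within 5 bases of the start and goes on with at least 4 pyrimidines. They set Rps27l and Rpl3l, which passed the test between days in rats, and Rpl22l1, just outside it, beside their partners, with Rpl39, which also passed, and the stalk protein Rplp0.
Rps27 (chr2:177964587-177964636, minus strand): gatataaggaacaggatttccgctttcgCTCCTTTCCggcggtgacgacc
Rps27l (chr8:76443628-76443677, plus strand): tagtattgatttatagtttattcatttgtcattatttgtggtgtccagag
Rpl22 (chr5:168117931-168117980, plus strand): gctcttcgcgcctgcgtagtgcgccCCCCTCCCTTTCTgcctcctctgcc
Rpl22l1 (chr2:113683166-113683215, plus strand): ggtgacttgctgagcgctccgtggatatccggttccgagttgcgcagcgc
Rpl3 (chr7:113507971-113508020, minus strand): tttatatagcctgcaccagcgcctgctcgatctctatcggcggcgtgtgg
Rpl3l (chr10:14258416-14258465, plus strand): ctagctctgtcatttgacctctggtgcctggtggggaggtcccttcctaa
Rpl39 (chrX:121195877-121195926, minus strand): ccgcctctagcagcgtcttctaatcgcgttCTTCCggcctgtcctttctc
Rplp0 (chr12:46718371-46718420, minus strand): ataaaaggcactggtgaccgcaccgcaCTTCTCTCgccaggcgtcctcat
Rps27 and Rpl22 held a tract in this window, of 9 and 13 bases as marked, and their paralogs did not. The tract of Rpl22 is cut at the search limit, since the bases just before its capitals are also C. Neither Rpl3 nor Rpl3l held one. Of the 95 rat members, 71 matched a promoter by symbol, and 41 of these (57.7%) held a tract, beside 16.96% of all 27457 promoters. Among members whose symbol ends in l or in l and a number, 3 of 12 held a tract, and among the others 38 of 59. The letters CCGGAAG, read on either strand in 300 bases (250 before and 50 from the start), were in 29.6% of the members' promoters and in 9.22% of all, TATAAA in 12.7% and 14.3%, and CAGCTG in 5.63% and 15.1%. These are matches of letters, and a missing tract depends on the annotated start.

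Ribosomal protein genes took a steady share of the macrophage libraries and a variable share of the tissue libraries. In LPS macrophages, which held 55614185 to 71538840 reads per sample over both groups, the members summed to between 4.76% and 4.96% of reads (median 4.84%), and with CGRP to between 4.66% and 4.88% (median 4.79%). Rat libraries held 14854598 to 18742423 counts, and the members took 1.74% to 5.79% of them. Both extremes lay in the sensory nerve- group of day 14, whose rats gave 3.69%, 5.79%, 1.74% and 2.50%. These libraries also differed in erythroid markers (hemoglobin genes and others), which took 26.2%, 0.256%, 48.4% and 31.4% of the counts in the same order. With erythroid and skeletal muscle markers left out of the total, the same rats gave 5.00%, 5.82%, 3.40% and 3.65%. In this group the highest rat still had the highest share, and the SD between rats fell from 1.77 to 1.14. It also fell in sensory nerve+ rats of day 3 (0.42 to 0.39) and day 14 (0.99 to 0.69). It rose in sensory nerve- rats of day 3 (0.16 to 0.23). At day 7 it rose in sensory nerve+ rats (0.69 to 0.90) and in sensory nerve- rats (0.28 to 0.44). The part of these markers in the spread was not tested. At day 3 the share was 3.79%, 4.57% and 3.91% in the sensory nerve+ rats and from 3.89% to 4.26% in the sensory nerve- rats. Small and large subunit genes varied together, at 0.765% and 0.973% of counts in the lowest rat and 2.58% and 3.21% in the highest.

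**Figure D1:**
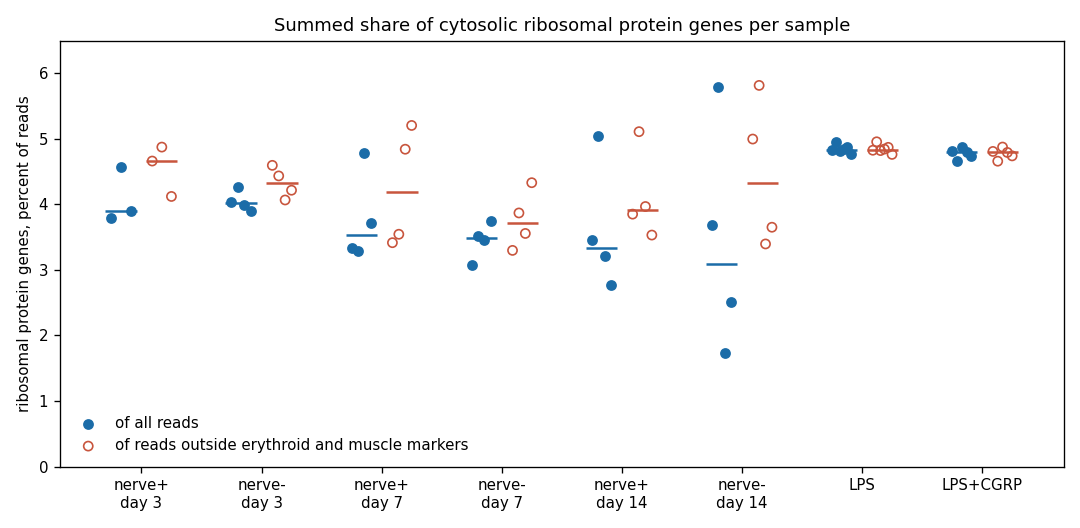
Summed percent of reads in cytosolic ribosomal protein genes (vertical axis) per sample and group. Filled points are of all reads, open points of reads outside erythroid and muscle markers, and lines are group medians; the sensory nerve- rats of day 14 span 1.74% to 5.79% and the macrophages 4.66% to 4.96%.

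Within groups, ribosomal protein genes were less variable than the typical gene in both systems. The median within-group SD on the log2 scale was 0.27 for 90 tested rat members and 0.38 for all 15858 tested genes. In macrophages it was 0.033 for 86 members and 0.051 for 13492 genes. High expression alone goes with less noise: among the 282 macrophage genes at or above the median member level the SD was 0.025, below that of the members. Rat genes at that level had an SD of 0.34.

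Per kilobase of annotated exon, the levels of the 89 macrophage members differed widely. The length took in every annotated exon of a gene, at 499 bases for Rplp1, 3170 for Rpsa and 6256 for Rps24. The order and the counts below therefore also follow the annotation. In the LPS group the highest were Rplp1, a protein of the acidic stalk that recruits translation factors (median 1627 RPKM, range 1515 to 1676, chr9:61913284-61914542 on GRCm38/mm10), Rps3a1 (1135 RPKM) and Rpl19 (1039 RPKM). The ranges of Rplp1 and Rps3a1 did not overlap. Of the 89 members, 71 were at 100 RPKM or more and 16 at 500 RPKM or more. Rplp0, the scaffold of the stalk, was at 620 RPKM and Rpsa, known also as the laminin receptor precursor, at 606 RPKM, and these ranges overlapped. By CPM, which leaves length out, Rpsa had a median of 1920 in LPS and Rplp1 of 814. At the other end, Rpl39l, Rps4l and Rpl10l had 0 or 1 read in every sample, and Rpl3l had 6 to 19 reads per sample (median 0.139 RPKM in LPS). Reads of members with near-identical copies or pseudogenes can be shared out or lost in counting, so that the level of a single such gene is uncertain.

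CGRP moved the macrophage ribosomal protein genes very little. With 86 members passing the filter on low values and 3 removed by it (Rpl10l, Rpl39l, Rps4l), 0 passed an adjusted p of 0.05 in limma, where 0.0222% of all 13492 genes did. At an unadjusted p under 0.05 there were 19 members (22.1%), all lower with CGRP, beside 10.1% of all genes, and edgeR and DESeq2 on recovered reads gave 18 and 22 such members and also called 0. The members' median log2 fold change was -0.027 beside 0.00044 for all genes, and 78 of 86 were lower, where 50.5% of all genes were higher. These directions turned on the deposited values without rescaling, where 84 of 86 members were higher and the median of all genes was itself at 0.11; relative to that median the members were at -0.019.

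Rps27l, the p53-responsive paralog of Rps27 (chr9:66946086-66949516 on GRCm38/mm10), had the smallest p of the members. Its CPM in LPS ranged from 90.1 to 95.1 (median 91.8), and with CGRP it was 89.9, 85.5, 89.6, 86.9 and 87.2. All 5 CGRP samples lay below all 6 LPS samples. It was the only member whose groups did not overlap (1.16% of members, beside 1.11% of all genes), and the difference was -0.069 on the log2 scale (adjusted p = 0.204, SE 0.018). Rps20 followed at -0.059 (adjusted p = 0.378, SE 0.020) and Rplp1 at -0.067 (adjusted p = 0.397, SE 0.025). Rplp0 was at -0.044, Rplp2 at -0.019 and Rpsa at -0.0083. In the main scaling, the whole 95% interval lay within 0.1 of 0 on the log2 scale for 71 of 86 members, and within 0.15 for 81. These intervals cover the spread between samples and not the choice of scaling. They therefore do not limit a shift shared by all members. Rps12l1 had the widest interval, at 0.52 with 0 to 91 reads per sample, and 3 of its 11 libraries had 0. Among ribosome genes outside the symbol rule, Fau, a ubiquitin-like fusion of a small subunit protein, was at -0.056 (adjusted p = 0.259) and Rack1, a signalling scaffold on the small subunit, at -0.043 (adjusted p = 0.463).

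**Figure D2:**
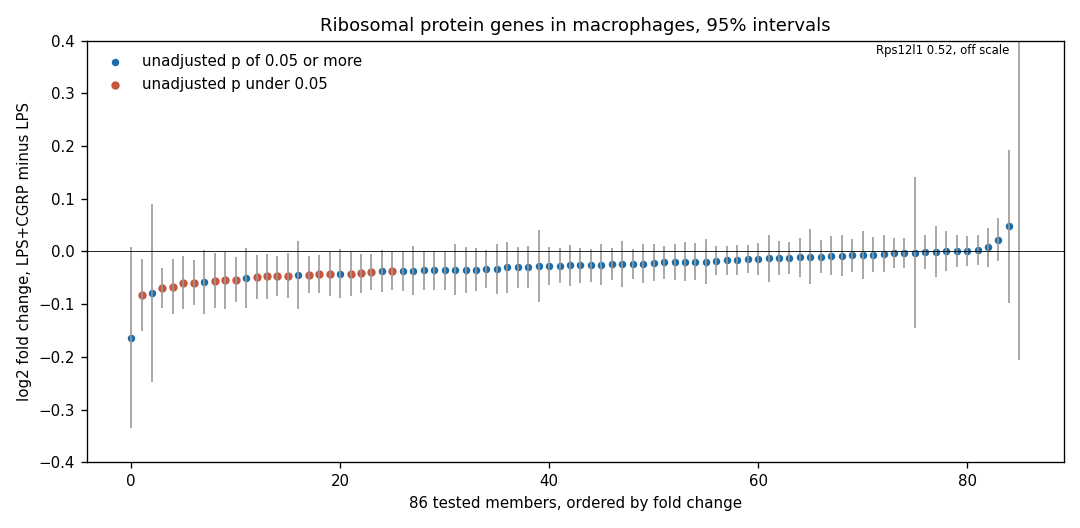
Log2 fold change of 86 members, LPS+CGRP minus LPS (vertical axis), ordered by size (horizontal axis), with 95% intervals as grey lines; red points have an unadjusted p under 0.05. The 19 red points all lie below 0, and the intervals of 81 members lie within 0.15 of 0.

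Transection of the nerve left no ribosomal protein gene past the threshold on any day. Of 87 members tested at each day, 0 passed an adjusted p of 0.05 in edgeR, beside 0% of 14695, 14716 and 14610 genes tested at days 3, 7 and 14, and DESeq2 also called 0 members. At an unadjusted p under 0.05 there were 0, 0 and 2 members, beside 0.83%, 1.46% and 9.33% of all genes. The members' median log2 fold change, sensory nerve- minus sensory nerve+, was -0.11 at day 3 (77 of 87 lower), -0.13 at day 7 (82 lower) and 0.29 at day 14 (79 higher), beside medians of -0.0074, -0.0065 and 0.025 over all genes, of which 48.1%, 48.8% and 53.4% were higher. Leaving out 1 rat kept the medians of days 3 (-0.17 to -0.016) and 14 (0.21 to 0.37) on their side of 0. At day 7 the range was -0.22 to 0.067, with the turn to 0.067 coming without sensory nerve+ replicate 4. Scaled by library totals, the day 14 median turned to -0.11 with 15 of 87 higher, while the median of all genes fell to -0.41, so that relative to all genes the members were at 0.30 in that scaling and 0.27 in the main one. At day 14 some marker lists were higher: erythroid (8 of 8 higher, median 1.97), osteoclast (4 of 4 higher, 1.71) and osteoblast (5 of 5 higher, 1.27). Lower were skeletal muscle (0 of 15 higher, -2.71), Schwann cell (0 of 3 higher, -1.84) and proliferating cells (0 of 6 higher, -0.74). The other marker lists had 6 of 8 (macrophage), 3 of 4 (lymphocyte and plasma cell), 2 of 6 (neutrophil), 1 of 4 (fibroblast) and 0 of 1 (epithelium) higher. Of mitochondrial ribosomal protein genes 13 of 75 were higher (-0.17), and of ribosome biogenesis genes 15 of 45 (-0.029). No gene of these lists passed the adjusted threshold, and their part in the result was not tested. Scaled within each comparison, the groups of day 14 did not overlap for 2 members, Rpl12 and Rps2 (2.30%), beside 3.25% of all genes. On the scaling over all rats Rps2 did overlap, with a sensory nerve+ rat at 1518 CPM and a sensory nerve- rat at 1499 CPM. The groups did not overlap for 0 members at days 3 and 7, beside 1.71% and 0.761%. A difference between days in the transection effect was tested directly, for day 7 against 3, 14 against 3 and 14 against 7. Of 90 members, 0 passed for any pair of days, beside 0% of 15858 genes. In the same order, 0, 1 and 7 members had an unadjusted p under 0.05, beside 1.03%, 6.49% and 3.85% of all genes. The members' median for day 14 against day 7 was 0.43, beside 0.017 for all genes.

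At day 14 the smallest p values belonged to Rpl3l and to Rplp2 of the stalk. Rplp2 was at 169, 241, 182 and 176 CPM in the sensory nerve+ rats and at 288, 292, 232 and 224 CPM in the sensory nerve- rats. The groups overlapped through 1 sensory nerve+ rat, and the difference was 0.42 on the log2 scale (adjusted p = 0.519, SE 0.17). Rplp1 was at 0.39, Rplp0 at 0.41 and Rpsa at 0.47, each with an interval that held 0. At day 3 the smallest p values belonged to Rps12l2 (1.99, SE 1.08), Rps12 (-0.41) and Rpl38 (-0.57), and at day 7 to the Y-linked Rps4y2 (-0.46), Rpl22l1 (-0.29) and Rpl15 (-0.25), with adjusted p of 1.00 in each case.

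Between days, 4 ribosomal protein genes passed the test in at least 1 comparison: Rpl3l, Rps27l, Rpl39 and Rpl7l1. For the others a change was not shown, which is not evidence of a constant level. In sensory nerve+ rats, 1 of 88 members rose and 0 fell from day 3 to day 7, where 6.67% of 15016 genes were called (4.88% higher, 1.79% lower). From day 3 to day 14, 1 rose and 0 fell, where 5.78% of genes were called (2.69% higher, 3.09% lower). In sensory nerve- rats, 1 of 87 rose and 1 fell from day 3 to day 7, beside 10.5% of all genes (3.68% higher, 6.77% lower). From day 3 to day 14, 1 rose and 3 fell, beside 23.5% of all genes (8.88% higher, 14.6% lower). From day 7 to day 14, 0 of 87 passed in either group, beside 0.0202% and 0.0138% of all genes, with 0 and 6 members at an unadjusted p under 0.05 beside 9.42% and 23.5% of all genes, and with 3 members called by DESeq2 in the sensory nerve- group. The 1 gene called lower in sensory nerve+ rats was 0.00673% of those tested. Their groups did not overlap for 0 and 4 members, beside 5.55% and 12.1% of all genes. In the first, the smallest p values belonged to Rpl22l1 (-0.45, SE 0.20), Rps27l (-0.41, SE 0.21) and Rps20 (-0.35, SE 0.22). In the second they belonged to Rplp2 (0.58, SE 0.17, adjusted p = 0.120), Rps10l1 (0.59, SE 0.20) and Rps27l (-0.64, SE 0.24). From day 3 to day 7, 21 of 88 members were higher in sensory nerve+ rats and 10 of 87 in sensory nerve- rats, beside 54% and 48.8% of all genes. From day 7 to day 14 it was 15 and 81 of 87, beside 46.6% and 49.2%, and the 81 became 33 with library totals. From day 3 to day 14, 7 of 88 and 57 of 87 were higher, beside 50.2% and 47.1%, with medians of -0.28 and 0.072. The latter turned to -0.23 with library totals (13 of 87 higher), where the median of all genes fell to -0.42. Leaving out 1 rat also turned it, to -0.031 without sensory nerve- replicate 2 of day 14. The sensory nerve+ median from day 3 to day 7 (-0.11) turned to 0.0087 without replicate 1 of day 7, and that from day 7 to day 14 (-0.12) to 0.058 without replicate 4 of day 7. DESeq2 called more members, 3 and 4 in sensory nerve+ rats and 8 and 14 in sensory nerve- rats for day 7 and day 14 against day 3. The share of all genes that DESeq2 called is not given here, so its counts are not read as a result about the members.

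**Figure D3:**
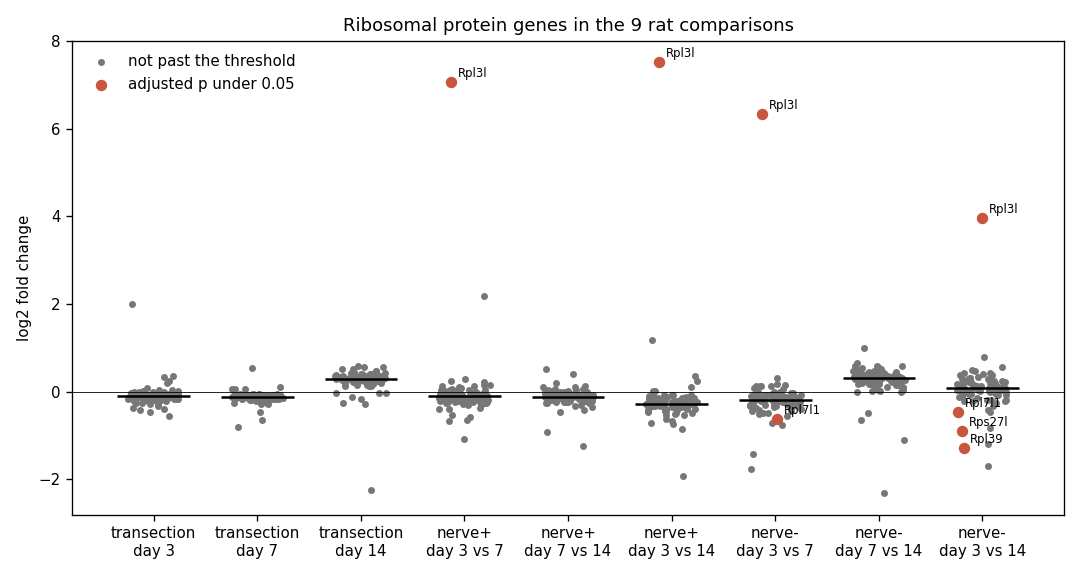
Log2 fold change of each tested member (vertical axis) in 9 rat comparisons, sensory nerve- minus sensory nerve+ for transection and later minus earlier day otherwise. Red points passed an adjusted p of 0.05 and lines are medians over members; Rpl3l stands at 7.05 and 7.51 in the sensory nerve+ rats, and most members lie close to 0.

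Rpl3l, the striated muscle paralog of the large subunit protein Rpl3, was the member that rose. At day 3 it was at 0.327, 0.190 and 0.205 CPM in sensory nerve+ rats and at 1.57, 0.190, 0.233 and 0.375 CPM in sensory nerve- rats. At day 7 it reached 26.995, 34.9, 18.8 and 44.6 CPM with the nerve and 154, 20.05, 7.23 and 1.86 CPM without it. At day 14 the levels were 80.1, 18.9, 31.5 and 45.4 CPM with the nerve and 6.22, 3.66, 25.5 and 1.85 CPM without it. Every rat of days 7 and 14 lay above every rat of day 3, and the sensory nerve- rats of day 7 spread the most. The rise from day 3 to day 7 was 7.05 on the log2 scale in sensory nerve+ rats (adjusted p = 0.000745, SE 0.44) and 6.32 in sensory nerve- rats (adjusted p = 0.0421, SE 1.57). To day 14 it was 7.51 (adjusted p = 0.0165, SE 0.69) and 3.96 (adjusted p = 0.0301, SE 1.05). The gene had 4 or 5 counts in sensory nerve+ rats of day 3, so it entered these tests only through the later group where it was high, and the size of the change rests on those few counts. The first of these calls held in each of 7 fits that left out 1 rat, and the others in 1 of 8 (sensory nerve- to day 7), 4 of 7 (sensory nerve+ to day 14) and 3 of 8 (sensory nerve- to day 14). Without the sensory nerve- rat of day 7 with 154 CPM, the rise to day 7 was 4.06 and did not pass. Without the sensory nerve- rat of day 14 with 25.5 CPM, the rise to day 14 was 2.70 and did not pass. At day 14 the difference between sensory nerve- and sensory nerve+ rats was -2.24 (adjusted p = 0.519, SE 0.84).

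Skeletal muscle markers moved with Rpl3l. Their sum was 39.6 to 94.99 CPM in sensory nerve+ rats of day 3 and 7425 to 27023 CPM at day 7. From day 3 to day 7, 15 of 15 of these markers were higher in sensory nerve+ and in sensory nerve- rats. In the former 15 passed the threshold and in the latter 10, beside 4.88% and 3.68% of all genes called higher. Over the 16 rats of days 7 and 14, log2 of Rpl3l and of the marker sum had a Pearson r of 0.75 (permutation p = 0.0019) and a Spearman rho of 0.89 (permutation p = 2e-05, the smallest that the permutations can give), the single relation computed. Without the 2 rats farthest from the median of the marker sum, r was 0.91. These were rats of day 14 with markers at 318 CPM (sensory nerve+) and 265 CPM (sensory nerve-). Both held more Rpl3l than some rats with higher marker sums, so the higher r came from leaving out rats off the relation. The 16 rats came from 4 groups whose median marker sums ran from 1078 to 20568 CPM. The pooled r and rho therefore also hold differences between groups, and their p is not evidence of a relation within a group. Within the groups of 4 rats rho lay between 0.4 and 1, with too few rats for a test. The relation was looked at after the values had been seen, and the part of the muscle in the result was not tested. The rats that stood off the relation had Rpl3l at 18.9 CPM with the markers at 318 CPM, and at 6.22 CPM with the markers at 265 CPM.
Beside Rpl3l, its partner Rpl3 was at 1037 to 1186 CPM in sensory nerve+ rats of day 3 and at 739 to 1024 CPM at day 7. In the sensory nerve- rat of day 7 with the highest Rpl3l, the paralog made up 20.1% of the reads of the pair, and in the other 3 rats of that group at most 2.09%. In macrophages the share was at most 0.0323%.

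**Figure D4:**
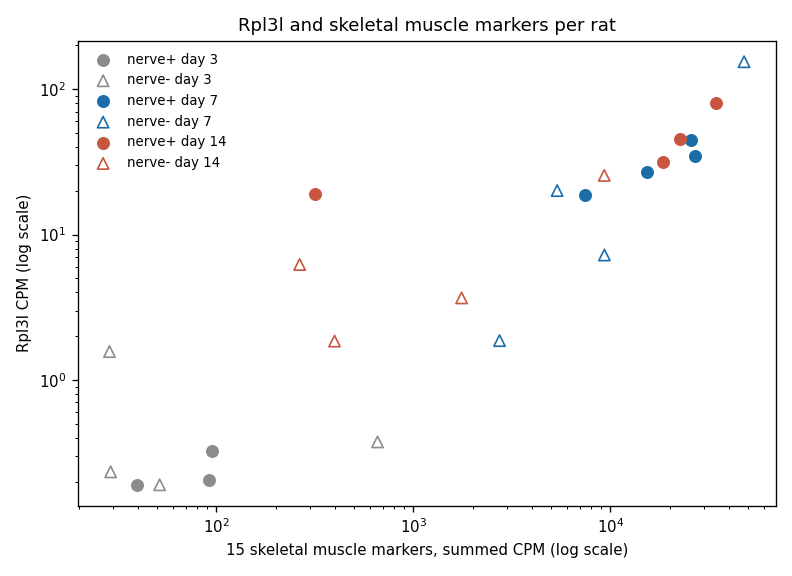
Rpl3l in CPM (vertical axis) against the summed CPM of 15 skeletal muscle markers (horizontal axis), both on log scales, with 1 point per rat. Day 3 rats sit at 0.190 to 1.57 CPM of Rpl3l, and the rats of days 7 and 14 at 1.85 to 154 CPM.

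The members that fell were Rps27l, Rpl39 and Rpl7l1. Rps27l in sensory nerve- rats was at 74.7, 65.3, 54.5 and 63.5 CPM at day 3 and at 33.2, 46.4, 28.8 and 34.0 CPM at day 14. These groups did not overlap, which held in this contrast for 9.20% of members and 27.3% of all genes. The level fell by 0.90 on the log2 scale (adjusted p = 0.00948, SE 0.16). At day 7 the rats spread over both ranges, at 40.6, 45.2, 64.3 and 73.2 CPM. In sensory nerve+ rats it was at 81.3, 42.8 and 62.6 CPM at day 3 and at 39.5, 29.4, 48.3 and 37.1 CPM at day 14, which overlapped, at a difference of -0.67 (adjusted p = 0.133, SE 0.25). Its share of the reads of Rps27 and Rps27l had a median of 29.3% at day 3, 22.8% at day 7 and 13.8% at day 14 in sensory nerve- rats, and of 26.7%, 21.7% and 18.1% in sensory nerve+ rats. In macrophages the share was 20.2% to 21.6%.

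Rpl39, a short protein of the ribosomal exit tunnel, was at 28.02, 26.7, 14.2 and 21.4 CPM at day 3 in sensory nerve- rats and at 7.77, 12.7, 8.39 and 9.34 CPM at day 14. The groups did not overlap (27.3% of all genes did not), and it fell by 1.28 on the log2 scale (adjusted p = 0.0120, SE 0.25). In sensory nerve+ rats the same contrast gave -0.85 (adjusted p = 0.0636, SE 0.22), again without overlap. There 10.2% of members and 24.7% of all genes had groups that did not overlap. The calls of Rps27l and Rpl39 held in each of 8 fits that left out 1 rat. With library totals Rpl39 kept its call and Rps27l lost it (adjusted p = 0.0668). Rpl39 had a median of 226 counts per rat, which is low for a member. The limit given for macrophages, that reads of near-identical copies can be shared out or lost, holds here too. Its level is therefore uncertain.

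Rpl7l1, a paralog of Rpl7, was at 128, 114, 115 and 124 CPM at day 3 in sensory nerve- rats and at 74.0, 83.9, 74.3 and 81.7 CPM at day 7. No rat of day 7 reached the level of day 3, and the gene fell by 0.63 (adjusted p = 0.0140, SE 0.091). In this contrast 14.9% of members and 21.8% of all genes had groups that did not overlap. At day 14 it was at 105, 91.6, 84.1 and 81.2 CPM, lower than day 3 by a log2 difference of -0.45 (adjusted p = 0.0299, SE 0.12). The first call held in 6 of 8 fits that left out 1 rat and the second in 2 of 8. In sensory nerve+ rats the change to day 7 was -0.52 (adjusted p = 0.0915, SE 0.15). Rpl22l1, the paralog of Rpl22, was at 94.99, 80.9 and 81.5 CPM at day 3 and at 54.9, 62.1, 66.0 and 53.2 CPM at day 14 in sensory nerve+ rats. The groups did not overlap (24.7% of all genes did not), and the difference was -0.52 (adjusted p = 0.0597, SE 0.13). In sensory nerve- rats it was -0.42 (adjusted p = 0.0527, SE 0.13). Whether the time course differed between innervated and denervated tissue was tested through the interactions above. None of these genes passed there, nor did any of the 15858 genes tested.

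**Figure D5:**
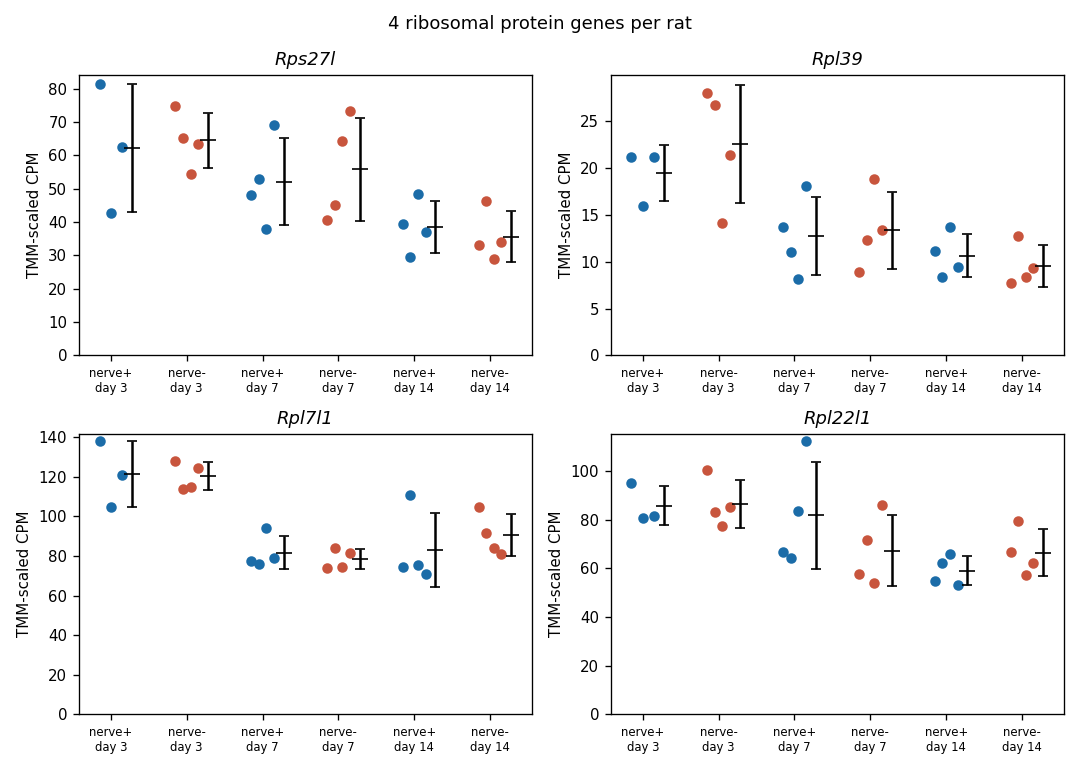
TMM-scaled CPM (vertical axes) of Rps27l, Rpl39, Rpl7l1 and Rpl22l1 in 6 rat groups, with 1 point per rat and the mean with SD in black; blue is sensory nerve+ and red sensory nerve-. Rps27l and Rpl39 of the sensory nerve- rats at day 14 lie below all those of day 3.

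Other paralogs were low or did not pass. Rpl39l, the testis paralog of Rpl39, was at -1.08 (SE 0.56) from day 3 to day 7 in sensory nerve+ rats, with a median of 28 counts over all rats. Rps4y2 was at -1.43 (adjusted p = 0.133, SE 0.55) over the same days in sensory nerve- rats and made up 0.0988% to 1.16% of the reads of Rps4x and Rps4y2. Rpl10l made up at most 0.409% of the reads of Rpl10 and Rpl10l in any rat. In the 9 rat comparisons between groups the filter removed 7 or 8 members, which were copies with few counts (Rpl22l2, Rpl30l1, Rpl31l1, Rpl31l4, Rpl34l1, Rps12l3 and Rps18l1 in each, Rps19l1 in 6 and Rpl3l in 1).

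Genes that build ribosomes, and those of the mitochondrial ribosome, also changed between days. Of 45 ribosome biogenesis genes, 22 were called lower and 0 higher from day 3 to day 7 in sensory nerve- rats. To day 14, 25 were called lower and 0 higher, and the medians were -0.45 and -0.54. Of all genes, 6.77% and 14.6% were called lower in these contrasts. In sensory nerve+ rats 4 and 6 fell and 0 rose, with medians of -0.34 and -0.42, beside 1.79% and 3.09% of all genes called lower. With library totals the biogenesis medians were -0.46 and -0.91 in sensory nerve- rats, where those of all genes were -0.031 and -0.42, and 18 and 5 genes were called. With the nerve they were -0.29 and -0.33, where those of all genes were 0.080 and 0.074, and 1 and 0 genes were called. Nop58, a core protein of the snoRNA particles that modify ribosomal RNA, fell by 1.14 on the log2 scale from day 3 to day 7 in sensory nerve- rats (adjusted p = 0.0140, SE 0.11) and Tsr1, which matures the small subunit, by 0.90 (adjusted p = 0.0140, SE 0.096). Of 75 mitochondrial ribosomal protein genes, 29 fell and 0 rose from day 3 to day 14 in sensory nerve- rats (median -0.44), beside the 14.6% of all genes called lower, and 0 passed in sensory nerve+ rats (median -0.12). With library totals, 1 of the 75 was called in the former. The share of all genes called with library totals is not given here, so those counts describe the setting only. All 6 proliferation markers fell in sensory nerve- rats between day 3 and each later day, at medians of -2.12 and -2.40. In sensory nerve+ rats all 6 were also lower, at medians of -1.55 and -1.37, with 5 called to day 7 and 0 to day 14. The part of these markers in the results was not tested.

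Of 16 tested translation factors and other genes with a pyrimidine tract, 4 fell from day 3 to day 7 in sensory nerve- rats, led by Hnrnpa1 (-0.97, adjusted p = 0.0194, SE 0.18) and Nap1l1 (-0.78, adjusted p = 0.0195, SE 0.15), and 0 rose, beside 6.77% of all genes called lower. Over the same days 1 of 16 rose in sensory nerve+ rats, near the 4.88% of all genes called higher, and 0 fell, beside 1.79%. The riser was Eif4a2 at 0.76 (adjusted p = 0.0369, SE 0.16). By day 14, 2 of 16 fell and 1 rose in sensory nerve- rats, near the 14.6% and 8.88% of all genes, the riser being Tpt1 at 1.18 (adjusted p = 0.0365, SE 0.33). Among 20 genes of mTOR and MYC control, 2 fell and 0 rose from day 3 to day 7 in sensory nerve- rats, beside 6.77% and 3.68% of all genes. These were Myc, by 1.16 (adjusted p = 0.0144, SE 0.18), and Larp1, by 0.50 (adjusted p = 0.0202, SE 0.096). To day 14, 4 rose and 4 fell in these rats, beside 8.88% and 14.6% of all genes. The mTOR inhibitor Ddit4 was at 1.73 (adjusted p = 0.00408, SE 0.25). In the integrated stress response list 1 of 10 rose to day 14, a share near the 8.88% of all genes: Ddit3 at 0.90 (adjusted p = 0.0163, SE 0.19). With CGRP, 0 genes of these lists passed in macrophages, and 30 of 45 ribosome biogenesis genes were higher (median 0.013), beside 50.5% of all genes. On the deposited values without rescaling 45 of 45 were higher, but there the median of all genes was itself above 0. That count is therefore not particular to these genes.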

How the data were processed

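In the rat tables the authors used HISAT to place reads on mRatBN7.2 and deposited expected counts per gene. Bowtie2 is also named, and the counter is not given in the sources used here. Of the values 37.0% were whole, and all were rounded. For macrophages, the authors aligned to mm10 with STAR, counted with featureCounts and deposited a signal per run equal to counts times 1 factor per run (0.877 to 1.14). Dividing by the factor gave whole reads for 100% of values within 0.01. The 2 runs of each of 11 samples were summed.

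Rat groups were compared in edgeR 4.0.16 (quasi-likelihood test, TMM, filterByExpr, only the groups compared), macrophages in limma 3.58.1 with a trend on log2(CPM + 0.5), so that fold changes of low genes are understated. Benjamini-Hochberg adjusted p under 0.05 over all genes tested was the threshold. Counts of genes that rose or fell between days are of genes past it. CPM in the text are TMM-scaled over all samples of a species. Interactions used 1 fit over all 6 rat groups. Each test was checked on simulated data. Where nothing says that the macrophage samples are separate cultures, p-values measure only the spread between these samples. Intervals cover the spread between samples, and precision is limited by 3 or 4 rats per group.

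Named genes were up to 8 (CGRP) or 4 (rat) members per direction with the smallest adjusted p among those called, and in rat comparisons with under 3 calls the 3 with the smallest p, fixed paralogs, stalk proteins and Rpsa, the extremes of level per length, members removed, and the 2 genes with the smallest p of other lists, of which some are given by counts. Members described beyond it for CGRP, and Rps2, Rpl12 and the 4-gene plot, were chosen after their values were seen. Members and lists were chosen with earlier results of these data known. Exon lengths and mouse positions are from GENCODE vM21, and rat promoters from RefSeq on GRCr8, which is another assembly than that of the counts. Protein sequences were not used here, and 1 gene that the rule names is not reported here.

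Alternatives were DESeq2 1.42.0, RLE factors, library totals, other filters and pseudocounts (0.1, 1), the replicate number as a block, all 23 rats in 1 fit, single runs and each sample left out. Software was matplotlib 3.10.9, scipy 1.17.1, pandas 2.3.3 and numpy 2.4.6 under Python 3.11.15, beside R 4.3.3.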

Additional observations from a re-analysis of the deposited data

Results flagged for a closer look

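Over 64 groups of 4 to 6 samples, 4 had a sample far from the others of its group in the share of a paralog, where chance alone gives about 1 in 20 such groups. For Rpl3l as a percent of the reads of Rpl3l and Rpl3, a sensory nerve- rat of day 3 had 0.125% where the next had 0.0327%. A sensory nerve- rat of day 7 had 20.1% and the next 2.09%. At day 14 a sensory nerve- rat had 3.01% and the next 0.540%. The same rats of days 7 and 14 had the highest skeletal muscle marker sums of their groups, 47801 and 9321 CPM, and the rat of day 3 had the lowest of its group, 28.7 CPM. For Rpl7l1 as a percent of the reads of Rpl7l1 and Rpl7, an LPS+CGRP sample had 19.5% where the next had 18.8%.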

How the results depend on the processing

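The 0 calls of members for transection held under every alternative run. DESeq2 called 3, 4, 8, 3 and 14 members where edgeR called 1, 1, 2, 0 and 4 (sensory nerve+ day 3 against 7 and against 14, sensory nerve- day 3 against 7, 7 against 14 and 3 against 14). The counts under DESeq2 and under the other alternatives below stand without the share of all genes called in that setting. They therefore describe the settings only. With all 23 rats in 1 fit, 2 and 3 were called in the sensory nerve+ contrasts from day 3 and 1 in sensory nerve- rats from day 7 to 14. No comparison had every same-number correlation over 0.1 (transection at day 7 came nearest, at 0.031 to 0.336), so the numbers were not taken as a pairing. With the replicate block, 0 members were called in sensory nerve+ rats from day 3 to 14, 0 in sensory nerve- rats from day 3 to 7 and 2 from day 3 to 14. Library totals gave 2 there, Rpl39 and Rpl3l. Leaving out 1 rat gave 1 to 2 and 0 to 4 calls in sensory nerve+ rats (day 3 against 7 and 14), and 0 to 2 and 2 to 5 in sensory nerve- rats. Library totals moved the members' median log2 fold change to -0.11 (transection at day 14), -0.037 and -0.23 (sensory nerve- day 7 and day 3 against 14), and -0.075 and 0.029 (interactions of day 14 against 3 and against 7). The deposited macrophage values without rescaling gave a median of 0.091 and 1 call, Rps12l1. Without erythroid and muscle markers in the total, the median share at day 3 was 4.66% in sensory nerve+ and 4.33% in sensory nerve- rats, beside 3.91% and 4.01%. Genes under about 30 counts, such as most copies removed by the filter, are limited by depth. Except where a fit uses fewer samples, the cause was not tested.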
